A study of Rattus norvegicus with 8 samples.

Results

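The genes described here encode the nuclear subunits of the mitochondrial respiratory chain and of ATP synthase, together with the assembly factors that share their gene names. They were taken as every probe set on the array with a single gene symbol that begins with Ndufa, Ndufb, Ndufc, Ndufs or Ndufv, Sdha to Sdhd, Uqcr, Cox4i, Cox5 to Cox8, or Atp5. This gave 101 of the 31099 probe sets on the array, or 90 of the 14217 genes with a probe set of their own, and 10 genes had more than 1 probe set. Another 7 probe sets whose annotation joins a gene of the set to another gene were left out, and mitochondrially encoded subunits fall outside the rule. By its symbol the set also holds Cox6c-ps1, a pseudogene, counted here with complex IV.

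Kidney RNA was measured in male Wistar rats, 8 weeks old, that had eaten their diet for 24 days. HP rats were given a high-phosphorus diet with 1.2% phosphorus and control rats the AIN-93G control diet with 0.3% phosphorus. The added phosphorus came as KH2PO4, put in place of corn starch, so that the HP diet also held more potassium. RNA of the left kidney of each rat was hybridised to its own Affymetrix whole-genome rat array, with 4 arrays for the HP diet and 4 for the control diet. The rats had been picked by the authors as average animals of their group, by urine volume and kidney phosphorus. In whole kidney, fewer cells of a type and less RNA per cell cannot be told apart.

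Complex I (NADH dehydrogenase) and complex II (succinate dehydrogenase) pass electrons to ubiquinone, complex III passes them on to cytochrome c, and complex IV (cytochrome c oxidase) passes them to oxygen. Complexes I, III and IV pump protons across the inner mitochondrial membrane, and ATP synthase (complex V) uses the return of the protons to make ATP. The tubules of the kidney, above all the proximal tubule and the thick ascending limb, hold many mitochondria, which power the sodium pump and through it the uptake of phosphate, glucose and amino acids from the filtrate. Transcription factors NRF1 (nuclear respiratory factor 1), GABP and YY1 are known to bind promoters of many subunit genes.

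The deposited values are levels on a log scale, taken as log2. The authors' method (distribution free weighted method, DFW) shrinks differences between arrays by the spread of the probe set, so most probe sets differed between arrays only from the sixth decimal on. Values of single arrays are therefore given as deviations from the mean of the 8 arrays in millionths of a log2 unit, and differences are HP minus control, with the SE. A standardized difference is the difference over the pooled SD within the diets. None of these is a fold change of RNA, and levels, given to identify a probe set, depend on its probes as well as on RNA, so they do not rank genes by amount.

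By limma, 1 of the 101 probe sets passed an adjusted p under 0.05, a probe set of the ATP synthase subunit gene Atp5me, which fell on the HP diet, and none was called higher. Over all 31042 probe sets tested, 1.13% were called lower and 2.95% higher, so the share of called subunit probe sets was near or under the background. At an unadjusted p under 0.05, 24 were lower and 1 was higher, beside 9.45% and 9.53% of all probe sets. Such p-values were more common where the mean level was at least 10. There, 18 of 69 subunit probe sets had one (26.1%), all lower. Of all 1880 probe sets of that level, 593 had one (31.5%), 345 lower and 248 higher. By rank products, the test in the study's methods, 0 of 101 were called in either direction, beside 2.32% of all probe sets called lower and 3.41% called higher.

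The subunit probe sets nevertheless lay mostly on one side. The HP mean was below the control mean in 94 of 101, beside 57.7% of all probe sets, and this count was 81 after aligning the arrays on the median deviation of all probe sets, but 27 with 3 higher and 71 equal after quantile normalization. The median standardized difference was -1.32, with a range of -5.34 to 3.37, against -0.21 over all probe sets. Every HP array was below every control array in 23 probe sets (22.8%, beside 5.81% of all), and every HP array was above in 1 (beside 7.09%). Among the 69 subunit probe sets with a mean level of at least 10, the HP mean was below in 67 and the arrays lay fully below in 21 (30.4%), beside 57.8% and 14.0% of all probe sets of such a level. None of the 69 lay fully above (11.9% of all of that level).

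The differences were small in absolute terms. Their median size was 0.795 millionths of a log2 unit, with a median SD within diets of 0.572, beside a median size of 1.53 and a median SD of 2.22 over all probe sets. The largest among the subunits was 28.8 millionths (Cox8b, a muscle isoform of complex IV), whereas the largest on the array was 574000 millionths. In 11 subunit probe sets the difference was under 1e-07, which is under 10 steps of the file's last decimal place where the level is at least 10. What such differences are as RNA ratios is not known from these values.

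**Figure D1:**
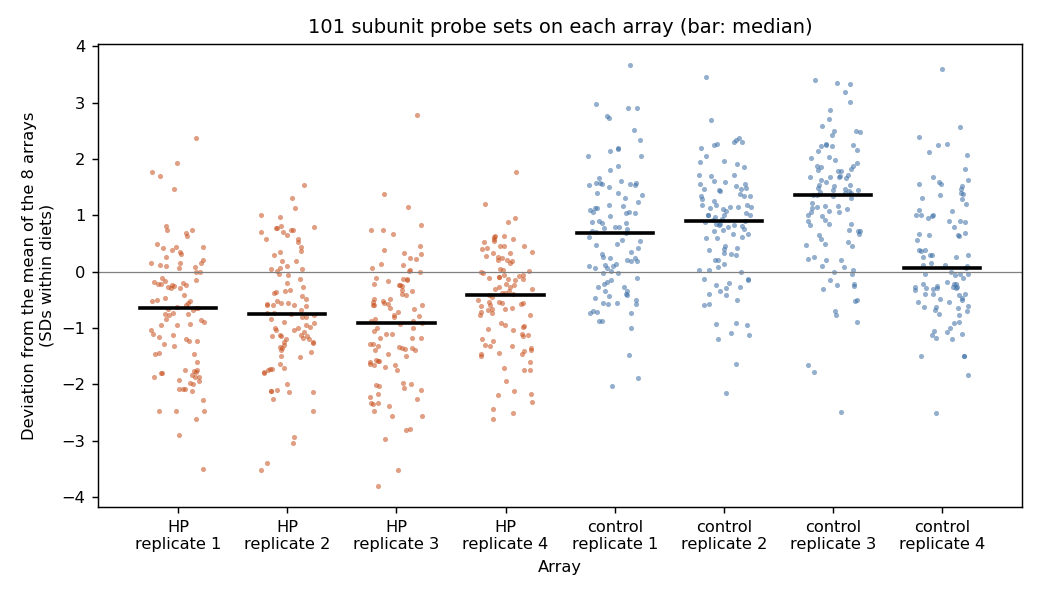
Deviation of each of the 101 subunit probe sets from its mean over the 8 arrays, in SDs within diets, with HP arrays on the left and control arrays on the right; bars are medians. The medians of the 4 HP arrays lie between -0.91 and -0.40 and those of the control arrays between 0.07 (replicate 4) and 1.36 (replicate 3).

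All 4 HP arrays had a median below 0 over the subunit probe sets, as the plot of deviations by array shows. In SDs within diets, the medians were -0.65, -0.75, -0.91 and -0.40 in HP replicates 1 to 4, and 0.68, 0.90, 1.36 and 0.07 in control replicates 1 to 4. Control replicate 4 was thus closest to the HP arrays. Over all probe sets tested, the array medians ranged only from -0.21 to 0.14. The lowest of the 8 values was in an HP array for 85 of 101 probe sets and the highest in a control array for 93. These counts were not taken over all probe sets.

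The median standardized difference was -1.44 in complex I, -1.89 in complex II, -1.62 in complex III, -0.39 in complex IV, -1.27 in ATP synthase and -1.10 in the assembly factors. The middle 50% of all probe sets ran from -0.92 to 0.59, with complex IV inside this range and the other groups below it. Complex IV also holds dim isoform probe sets and a pseudogene. At levels of at least 10, Cox8a, Cox7b, Cox5b, Cox7c and Cox6c had -2.39, -1.89, -1.34, -1.31 and -1.11. Cox6a1, Cox4i1, Cox6b1 and Cox7a2l had -0.87, -0.33, -0.07 and 2.34. A median over these brighter probe sets alone was not taken. For all probe sets with a mean level of at least 10, the middle 50% was wider, from -1.48 to 0.94. That range also held complex I, ATP synthase and the assembly factors, and only complexes II and III lay below it. The split at the range of all probe sets did not hold in every setting either. The median of complex IV was -1.14 without control replicate 4 and -1.01 without HP replicate 4. With the arrays shifted by a median deviation, medians were -1.01 and -0.68 in complex III and -0.69 and -0.83 in complex V. The median of all probe sets was then -0.07, and the middle 50% was not taken again for any of these settings. After quantile normalization all 6 medians were 0, and the differences between complexes were not tested.

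**Figure D2:**
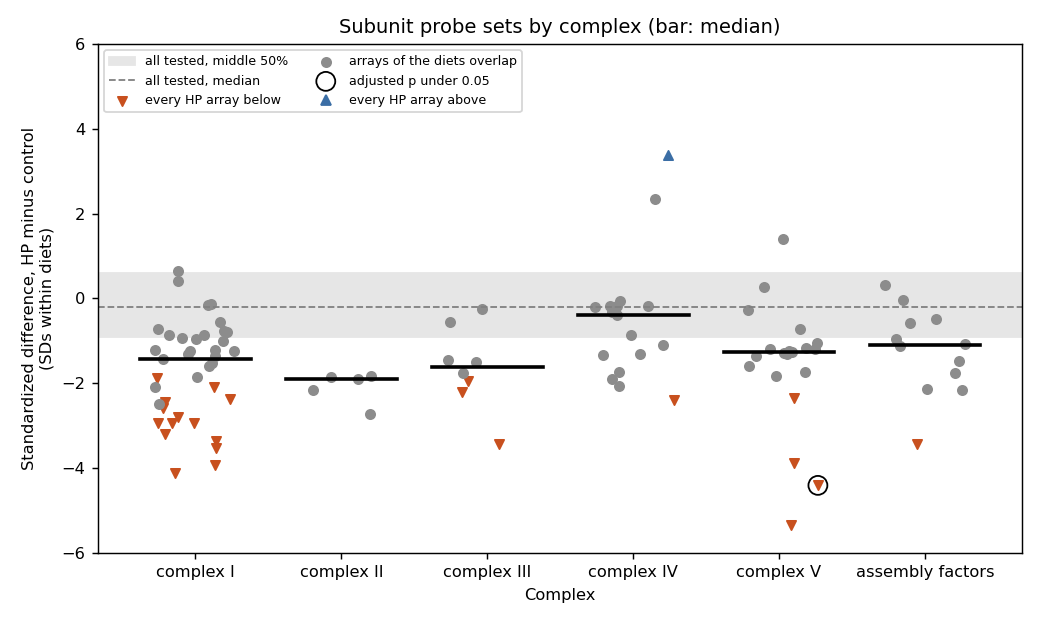
Standardized difference (HP minus control, in SDs within diets) of each subunit probe set by complex; bars are medians, triangles mark probe sets whose arrays did not overlap between the diets, the ring marks the probe set that passed limma, and the grey band is the middle 50% of all probe sets. Complex IV, with a median of -0.39 over bright and dim probe sets together, lies inside the band. The only triangle that points up is Cox6b2 at 3.37. The middle 50% of all probe sets with a level of at least 10, not drawn, runs from -1.48 to 0.94.

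**Figure D3:**
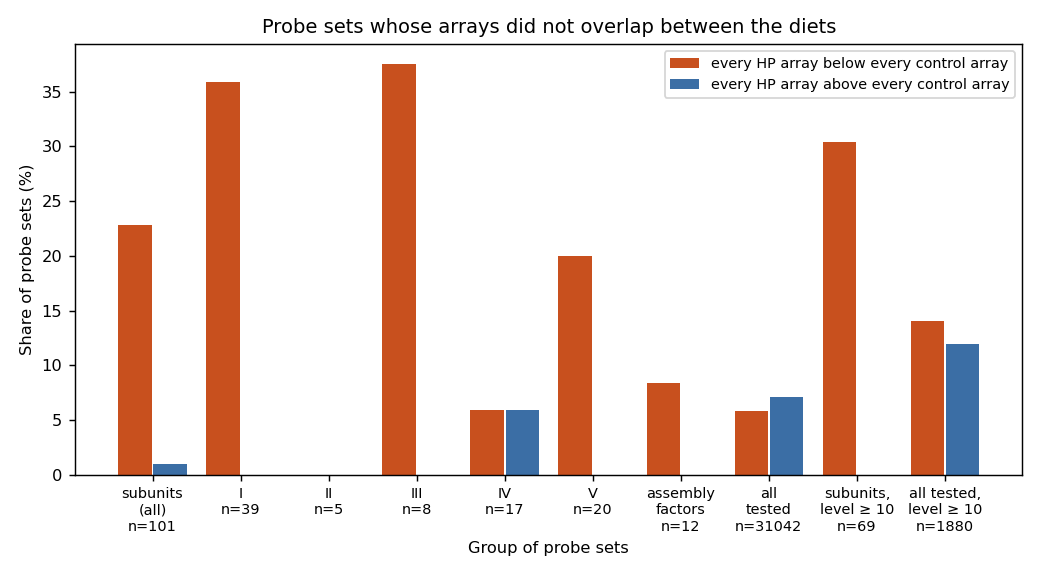
Share of probe sets, in percent, in which every HP array lay below (left bars) or above (right bars) every control array, for the subunits, each complex, and all probe sets tested, with the number of probe sets under each name. Shares below were 35.9%, 0%, 37.5%, 5.88% and 20.0% in complexes I to V and 8.33% in the assembly factors, beside 5.81% of all probe sets and 14.0% of those with a level of at least 10.

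Atp5me encodes subunit e of ATP synthase, a small membrane subunit that helps to hold ATP synthase dimers together. On its called probe set (1377191_at, mean level 6.88), the deviations were -3.15, -7.54, -6.01 and -5.95 millionths of a log2 unit in HP replicates 1 to 4, and 9.43, 2.49, 6.96 and 3.77 in control replicates 1 to 4. All HP arrays were thus below all control arrays. The difference was -11.3 millionths (SE 1.82, standardized -4.41, limma adjusted p = 0.023), and the exact permutation test gave p = 0.029, the smallest that 4 against 4 arrays allow. The call was lost without HP replicate 2 (adjusted p = 0.060), HP replicate 3 (0.054), HP replicate 4 (0.056) or control replicate 3 (0.073), and after centring each array on its median (0.98).

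The second probe set of the gene (1387019_at, mean level 9.65) did not pass. Its deviations were -0.325, -1.67, -3.80 and 0.669 millionths in HP replicates 1 to 4, and 0.622, 1.24, 0.855 and 2.41 in control replicates 1 to 4. HP replicate 4 lay above control replicate 1, so the diets overlapped. Its difference was -2.56 millionths (SE 1.04, standardized -1.73, adjusted p = 0.24). With a single probe set kept for each gene, the one of highest mean, Atp5me was therefore not called.

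Among the other subunits of ATP synthase, the F1 head, where ATP is made, had a lower HP mean in 5 of 5 probe sets, with a median standardized difference of -1.37. Atp5f1a and Atp5f1b encode its alpha and beta subunits. The difference was -0.795 millionths for Atp5f1a (SE 0.309, standardized -1.82, adjusted p = 0.34) and -0.110 for Atp5f1b (SE 0.0623, -1.25, 0.89). Atp5f1e, the epsilon subunit, had -0.850 (SE 0.464, -1.30, 0.44). None of the head subunits passed.

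The peripheral stalk, which holds the head still against the turning rotor, had a lower HP mean in 4 of 5 probe sets. Atp5po, the stalk subunit OSCP, had deviations of -0.194, -0.284, -0.504 and -0.804 millionths in HP replicates 1 to 4, and 1.10, 0.146, 0.0863 and 0.456 in control replicates 1 to 4 on its brighter probe set (1370276_at). The diets did not overlap, but the difference of -0.892 (SE 0.268, standardized -2.35) did not pass (adjusted p = 0.26). Its dimmer probe set (1397920_at, level 6.91) had a difference of 0.589 (SE 1.5, adjusted p = 0.89), so that the probe sets of Atp5po disagreed in sign. Atp5pd, stalk subunit d, had the most negative standardized difference of the whole set, -5.34, on a difference of only -0.13 millionths (adjusted p = 0.86). It was called by limma without moderation, which takes the very small SD of the probe set as it stands.

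In the membrane part, 7 of 7 probe sets had a lower HP mean, Atp5me included. Atp5mc3 encodes the c subunit, from which the rotor ring is built, and was the only c subunit gene with a probe set of its own. Its difference was -0.0600 millionths (SE 0.0265, standardized -1.60, adjusted p = 0.94). Atp5if1, whose protein blocks ATP hydrolysis by the enzyme when the membrane potential is lost, had 3 probe sets, 2 of them with a lower HP mean, and the brightest had a difference of 0.670 (standardized 1.39, adjusted p = 0.46).

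Complex I made up 39 of the 101 probe sets, from 36 genes. The HP mean was below in 37 of them, though none passed. Every HP array was below every control array in 14 (35.9%). This share was 5.81% over all probe sets and 14.0% over those with a level of at least 10. An unadjusted limma p under 0.05 was reached by 14 (35.9%), all lower. Over all probe sets with a level of at least 10 that share was 31.5%, counting both directions. The core subunits, which carry the flavin and the iron-sulfur clusters and are shared with bacteria, had lower HP means in 6 of 6 probe sets, 4 of them with no overlap, and a median standardized difference of -2.23. The accessory subunits, which surround this core, had lower HP means in 31 of 33 probe sets, 10 with no overlap, and a median of -1.32.

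**Figure D4:**
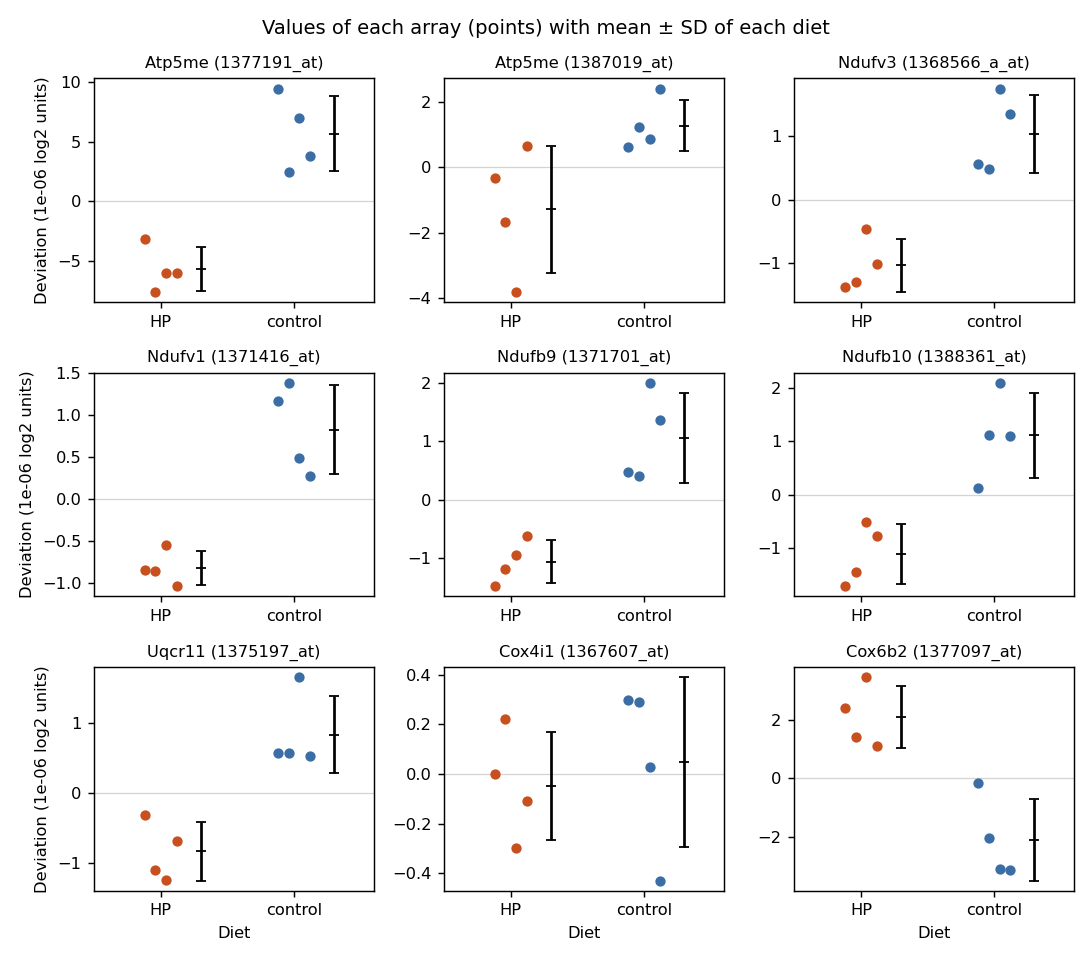
Deviation of each array (points) from the mean of the 8 arrays, in millionths of a log2 unit, for 9 probe sets, with HP arrays on the left and control arrays on the right of each panel and the mean ± SD of each diet (n = 4 arrays each). The vertical scales differ between panels: the differences are -11.3 for the called Atp5me probe set, -2.06 for Ndufv3, 4.20 for Cox6b2 and -0.095 for Cox4i1.

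Ndufv3, an accessory subunit of the part that oxidises NADH, came closest to the threshold in complex I. Its brighter probe set (1368566_a_at, level 11.0) had deviations of -1.37, -1.29, -0.458 and -1.01 millionths in HP replicates 1 to 4, and 0.552, 0.482, 1.74 and 1.34 in control replicates 1 to 4. The diets were apart, with a difference of -2.06 (SE 0.370, standardized -3.94, adjusted p = 0.055). The other probe set of Ndufv3 (1368567_at, level 8.16) gave -1.18 (SE 1.09, standardized -0.77, adjusted p = 0.63), with overlap.

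Ndufv1 is the core subunit that binds NADH and the flavin FMN. Its deviations were -0.845, -0.855, -0.545 and -1.04 millionths in HP replicates 1 to 4, and 1.16, 1.38, 0.485 and 0.275 in control replicates 1 to 4. The HP arrays lay close together and below all control arrays, with a difference of -1.64 (SE 0.282, standardized -4.12, adjusted p = 0.068). Ndufb9 and Ndufb10 are accessory subunits of the membrane arm. Ndufb9 averaged -1.06 ± 0.366 in HP rats and 1.06 ± 0.763 in control rats (SD, n = 4 each), a difference of -2.12 (SE 0.423, limma adjusted p = 0.066). Ndufb10 averaged -1.11 ± 0.567 in HP rats and 1.11 ± 0.80 in control rats (SD, n = 4 each), a difference of -2.22 (SE 0.490, limma adjusted p = 0.077). Neither overlapped between the diets.

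These complex I genes lay near the threshold, and the count of calls moved with the setting. Ndufv3, Ndufv1 and Ndufb9 were called lower with trend and robust moderation (adjusted p = 0.042, 0.046 and 0.046) and with 1 probe set per gene (0.035, 0.042 and 0.044), whereas none of the 3 was called by rank products, after median centring or after quantile normalization. Ndufs8, a core subunit with iron-sulfur clusters, had the largest difference of the complex, -5.02 millionths (SE 1.92, adjusted p = 0.20), with overlap. The probe sets with a higher HP mean were those of Ndufs4, an accessory subunit (1.06, SE 1.15, adjusted p = 0.69), and Ndufa4l2, a relative of Ndufa4 that is known as a target of hypoxia-inducible factor (1.48, SE 2.47, adjusted p = 0.81). Ndufa4, counted here by its name although its protein is now placed in complex IV, was the probe set with the highest signal of the group (level 12.91), with a difference of -0.845 (SE 0.478, adjusted p = 0.46). Ndufs8, Ndufs4 and Ndufa4l2, like Atp5pd and Atp5if1, were named after their values were seen.

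Complex II also belongs to the citric acid cycle, where it oxidises succinate. The HP mean was below in 5 of 5 probe sets of its 4 genes, but every probe set overlapped between the diets. Sdhc, a membrane anchor, had deviations of -1.16, -0.450, -0.400 and -0.330 millionths in HP replicates 1 to 4, and 0.770, 1.27, 0.850 and -0.550 in control replicates 1 to 4. Control replicate 4 lay among the HP arrays. The median over the complex was -1.46 to -0.64 SDs in the HP arrays, against 1.37 to 2.05 in control replicates 1 to 3 and -0.75 in control replicate 4. Without that array the median standardized difference of complex II was -4.59, against -1.89 with it.

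The differences in complex II were -0.840 millionths for Sdha, the flavoprotein (SE 0.327, adjusted p = 0.33), -0.357 for Sdhb, the iron-sulfur protein (SE 0.137, 0.59), and -1.17 for Sdhc (SE 0.439, 0.26). Sdhd, the other anchor, gave -1.09 (SE 0.283, adjusted p = 0.18) and -0.242 (SE 0.0791, 0.72) on its probe sets. None passed, and the standardized differences were all between -2.73 and -1.82.

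Complex III had a lower HP mean in 8 of 8 probe sets of 7 genes. In 3 (37.5%) the HP arrays lay fully below, beside 5.81% of all probe sets and 14.0% at a level of at least 10. Uqcr11, a small subunit, had deviations of -0.316, -1.10, -1.24 and -0.686 millionths in HP replicates 1 to 4, and 0.574, 0.574, 1.65 and 0.534 in control replicates 1 to 4. Control replicate 3 stood well above the other control arrays, and all of them were above the HP arrays. The difference was -1.67 (SE 0.344, standardized -3.43, adjusted p = 0.088).

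Uqcrc2, a core protein of complex III, had a difference of -1.42 millionths (SE 0.458, adjusted p = 0.20) with no overlap on its brighter probe set and of -8.28 (SE 3.93, 0.29) with overlap on the other. Uqcrfs1, the Rieske iron-sulfur protein through which electrons reach cytochrome c1, had -0.292 (SE 0.142, adjusted p = 0.68). Uqcr10, another small subunit, had -0.235 (SE 0.0944, adjusted p = 0.73). In these genes, too, the call was not reached and the sign was negative.

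Complex IV, with 17 probe sets of 17 genes, had a lower HP mean in 15. It had 1 probe set fully below and 1 fully above (5.88% each), near the 5.81% and 7.09% of all probe sets. Several of its subunits exist as tissue isoforms, a widespread form and a form known from heart and skeletal muscle, lung or testis. Cox4i1, the widespread form of subunit 4, had deviations of 0.00, 0.220, -0.300 and -0.110 millionths in HP replicates 1 to 4, and 0.300, 0.290, 0.0300 and -0.430 in control replicates 1 to 4. The diets overlapped throughout, and the difference was -0.0950 (SE 0.203, adjusted p = 0.93). Cox6a1 (-0.162, SE 0.132, adjusted p = 0.84) and Cox6b1 (-0.020, SE 0.192, adjusted p = 0.99), the widespread forms of subunits 6a and 6b, overlapped as well.

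Cox8a, the widespread form of subunit 8 and the probe set with the highest signal in complex IV (level 13.29), was the one whose arrays lay fully below. Its deviations were -0.361, -0.211, -0.311 and -0.0113 millionths in HP replicates 1 to 4, and 0.0187, 0.0588, 0.419 and 0.399 in control replicates 1 to 4. HP replicate 4 and control replicate 1 were almost level, and the difference of -0.447 (SE 0.132, standardized -2.39) did not pass (adjusted p = 0.48). Cox5a and Cox5b, of which Cox5b carries a zinc ion, had differences of -1.71 (SE 0.693, adjusted p = 0.26) and -1.57 (SE 0.83, adjusted p = 0.37). Cox7b, a small membrane subunit, had -0.627 (SE 0.235, adjusted p = 0.40).

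The probe sets of the muscle and lung isoforms had levels of 6.71 to 6.90 and did not pass. Cox4i2 (level 6.71), the form known from lung, had a difference of -0.510 millionths (SE 2.01, adjusted p = 0.93). Cox6a2 (level 6.71) had -0.633 (SE 2.42, 0.93) and Cox7a1 (level 6.90) -0.0915 (SE 0.308, 0.94), both known from heart and skeletal muscle. Cox8b (level 6.73) had the widest spread of the set, with deviations of 94.4, -253, 48.9 and 52.5 millionths in HP replicates 1 to 4, and -83.2, 199, 31.0 and -89.4 in control replicates 1 to 4. HP replicate 2 lay far below and control replicate 2 far above the rest, and the difference was -28.8 (SE 105, adjusted p = 0.93). No probe set with a single symbol was found for Cox7a2.

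Cox6b2, the testis isoform of subunit 6b (level 6.74), was the only subunit probe set with every HP array above every control array. Its deviations were 2.41, 1.42, 3.47 and 1.11 millionths in HP replicates 1 to 4, and -0.140, -2.04, -3.11 and -3.13 in control replicates 1 to 4. The difference was 4.20 (SE 0.882, standardized 3.37) and missed the threshold (adjusted p = 0.051). It was called higher without the 25% of probe sets of lowest mean (0.043), with 1 probe set per gene (0.036), after aligning the arrays on the median deviation of all probe sets (0.049) and without control replicate 1 (0.046), but its sign was negative after median centring (adjusted p = 0.98) and after quantile normalization, where it was called lower (3.2e-08).

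The assembly factors that carry the subunits' names had a lower HP mean in 11 of 12 probe sets of 10 genes. In 1 (8.33%) the HP arrays lay fully below, near the 5.81% of all probe sets. Ndufaf3, which helps to build the arm of complex I that feeds electrons to ubiquinone, had deviations of -1.44, -0.470, -0.559 and -0.371 millionths in HP replicates 1 to 4, and 0.688, 1.11, 0.345 and 0.693 in control replicates 1 to 4. The diets were apart and the difference was -1.42 (SE 0.291, standardized -3.44, adjusted p = 0.10). Ndufaf1, which acts on the membrane arm, had -3.61 (SE 1.44, adjusted p = 0.23), and Ndufaf8 had -0.784 (SE 0.257, 0.30). Sdhaf1 and Sdhaf3, which help to fit Sdhb with its iron-sulfur clusters, had -2.72 (SE 1.72, adjusted p = 0.44) and -6.19 (SE 2.05, 0.15).

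Promoter sequences are shown for the 3 genes with the smallest adjusted p, Atp5me, Cox6b2 and Ndufv3, as the 250 bases before the annotated start in the RefSeq table of build GRCr8. Capitals mark matches, on either strand, to the NRF1 motif GCGCANGCG, to CCGGAAG, a core bound by ETS factors such as GABP, and to the YY1 motif AAGATGGC.
Atp5me (chr14:1464610-1464859, plus strand): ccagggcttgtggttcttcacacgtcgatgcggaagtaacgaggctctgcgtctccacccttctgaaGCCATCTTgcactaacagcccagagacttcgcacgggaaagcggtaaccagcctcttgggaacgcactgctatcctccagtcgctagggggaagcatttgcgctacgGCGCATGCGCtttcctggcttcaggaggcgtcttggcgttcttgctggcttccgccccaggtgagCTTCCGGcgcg
Ndufv3 (chr20:9613536-9613785, plus strand): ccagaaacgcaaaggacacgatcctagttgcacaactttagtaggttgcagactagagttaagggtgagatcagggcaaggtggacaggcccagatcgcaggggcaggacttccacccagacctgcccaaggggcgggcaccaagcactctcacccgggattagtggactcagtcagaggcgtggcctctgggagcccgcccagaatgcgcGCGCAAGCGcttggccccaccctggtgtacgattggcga
Cox6b2 (chr1:78122621-78122870, plus strand): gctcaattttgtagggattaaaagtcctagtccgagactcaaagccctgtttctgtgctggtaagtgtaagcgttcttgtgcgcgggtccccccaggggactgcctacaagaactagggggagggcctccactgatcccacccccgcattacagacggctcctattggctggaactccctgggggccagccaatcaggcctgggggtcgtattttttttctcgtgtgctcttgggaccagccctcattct

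Atp5me held a match to each of the 3 motifs, starting 183 (YY1), 76 (NRF1) and 11 (CCGGAAG) bases before the start. Ndufv3 held an NRF1 match that starts 39 bases before the start, and Cox6b2 held none of these letters in this window. Of the 90 genes, 82 had a sequence in the table. The NRF1 motif was found in 18 of them (22.0%), beside 5.09% of all 33469 promoters, CCGGAAG in 24 (29.3%), beside 7.27%, and AAGATGGC in 2 (2.44%), beside 1.63%. Among the 19 genes with a sequence and a probe set whose HP arrays lay fully below, 5 had an NRF1 match and 5 a CCGGAAG match. The matches are letters in a window and were not tested against the diet.

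Genes that work next to the subunits, taken with 1 probe set per gene, were counted in the same fit. The counts of each list stand beside 57.7% of all probe sets with a lower HP mean, 1.13% called lower and 2.95% called higher. Of 13 measured components that deliver electrons or make ubiquinone, 12 had a lower HP mean, with a median standardized difference of -1.67, and 1 fell, Coq9, needed for ubiquinone synthesis. Coq9 had deviations of -3.70, -4.84, -1.69 and -5.54 millionths in HP replicates 1 to 4, and 6.0, 1.81, 3.75 and 4.19 in control replicates 1 to 4, a difference of -7.88 (SE 1.20, adjusted p = 0.021). The HP arrays were all below, although after quantile normalization the values of Coq9 were equal and after median centring it was not called (0.98).

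Of 31 assembly factors with other names, 28 had a lower HP mean (median standardized difference -0.98) and 2 fell. They were Ecsit, which takes part in complex I assembly (-2.64 millionths, SE 0.323, adjusted p = 0.023), and Cox16, which takes part in complex IV assembly (-8.19, SE 1.40, adjusted p = 0.027). Of 15 carriers and porins, 11 had a lower HP mean (median -1.05) and 1 fell, Slc25a11, the oxoglutarate carrier (-3.30, SE 0.468, adjusted p = 0.024). These 3 genes had no overlap between the diets, but none was called after median centring (0.98) or after quantile normalization (0.078 to 0.28).

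The citric acid cycle and pyruvate dehydrogenase had 0 calls of 19 genes, with a lower HP mean in 16 and a median of -1.50. The lowest p there was that of Idh3a, a subunit of NAD-dependent isocitrate dehydrogenase (-1.22 millionths, adjusted p = 0.16). Regulators of mitochondrial gene expression had 0 calls of 20, a lower HP mean in 14 and a median of -0.51. Ppargc1a, the coactivator PGC-1alpha, had a difference of -1.49 millionths (adjusted p = 0.69) and Tfam, which packs and transcribes mitochondrial DNA, -0.120 (0.97). After quantile normalization 6 of the 19 and 4 of the 20 genes were called lower, beside 7712 of all 31042 probe sets. After median centring 1 of the 19 was called higher, beside 78 of all probe sets. It was Pdk4, an inhibitory kinase of pyruvate dehydrogenase named after its values were seen (difference in the values as deposited 16800 millionths, SE 14200, adjusted p = 0.57).

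Glycolysis had 2 genes of 17 that rose and 0 that fell, with a median of 0.23. The HP mean was above in 10 and below in 7. Every HP array was above every control array in 3 genes (17.6%, beside 7.09% of all probe sets) and below in 2 (11.8%, beside 5.81%). The 2 below were Aldoc (-3.08 millionths, SE 0.684, adjusted p = 0.065) and Eno1 (-18.3, SE 5.27, adjusted p = 0.11). Ldha, the lactate dehydrogenase chain that predominates in muscle, had a difference of 22.5 millionths (SE 4.11, adjusted p = 0.031), which was turned to a call of lower after quantile normalization (5.4e-35), and Eno2, the neuronal enolase, of 104 (SE 20.8, adjusted p = 0.039). Both had every HP array above every control array, and neither was called after median centring (0.98).

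**Figure D5:**
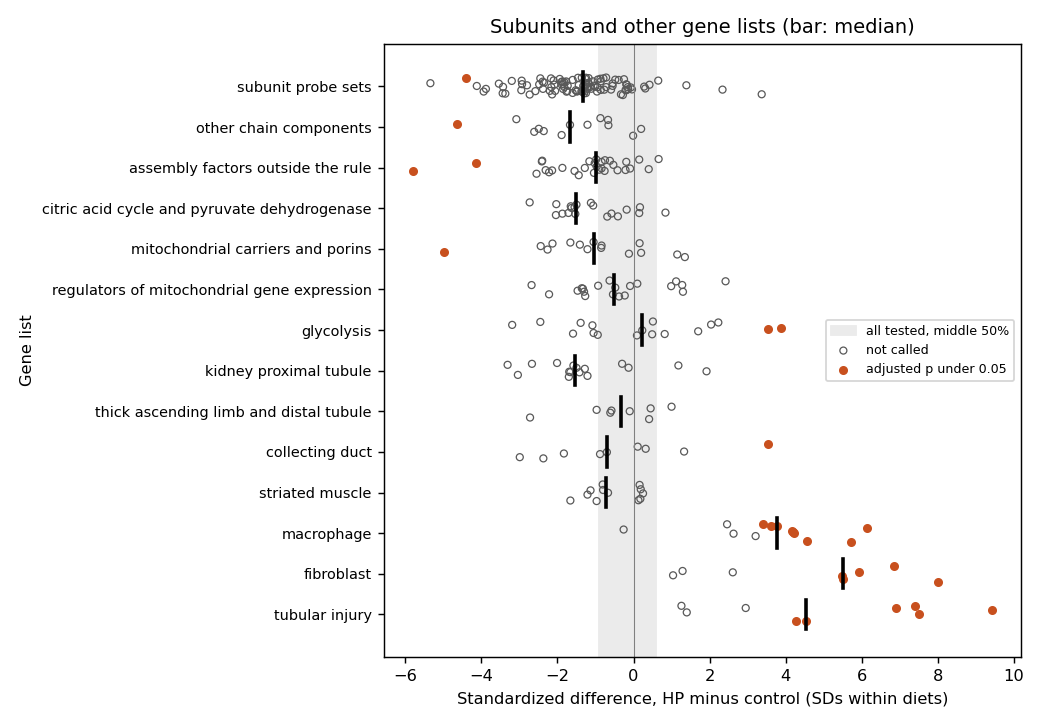
Standardized difference (HP minus control, in SDs within diets) of the subunit probe sets and of the genes of 13 other lists; bars are medians, filled points passed an adjusted p under 0.05, and the grey band is the middle 50% of all probe sets. The mitochondrial lists have medians of -1.67 to -0.51 and the proximal tubule list -1.54, whereas the macrophage, fibroblast and tubular injury lists have 3.77, 5.50 and 4.54.

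Markers of kidney cells were counted in the same way. The defining markers of the tissue were measured, Slc34a1, the sodium-phosphate cotransporter of the proximal tubule, at a level of 13.3. Of 16 proximal tubule markers, 0 were called and 14 had a lower HP mean, with a median standardized difference of -1.54. In 3 (18.8%) the HP arrays lay fully below, beside 5.81% of all probe sets and 14.0% at a level of at least 10. The summed deviation of the 16 markers ran from -197 to 19.6 millionths in HP arrays, against -32.1 to 195 in control arrays. The marker Slc5a12 (adjusted p = 0.88) gave -85.6 of the -197, in HP replicate 2, and 116 of the 195, in control replicate 1. Slc34a1 itself, on the 1 probe set kept for the gene, had a difference of -2.0 (SE 0.939, adjusted p = 0.31). The paper lists Slc34a1 as lower on the HP diet on another probe set, by rank products. It also reports the fall of this mRNA by in situ hybridization, with data not shown. Values of that other probe set are not given here, so the result above does not show Slc34a1 to be unchanged.

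In the other direction, 9 of 13 macrophage markers, 5 of 8 fibroblast markers and 6 of 9 markers of tubular injury rose, and none fell, beside 2.95% of all probe sets called higher. After median centring 4, 1 and 4 of these markers were called higher, without Col1a1 (0.98), and after quantile normalization 8, 3 and 5, while Acta2 (9.5e-28), Krt18 (0.0012) and Krt20 (5.5e-26) were then called lower. Over all 31042 probe sets, median centring called 78 higher, and quantile normalization called 316 higher and 7712 lower. The summed deviations of these marker lists did not overlap between the diets. For macrophages they were 3910 to 15900 millionths in HP arrays, against -10200 to -7490 in control arrays. For fibroblasts they were 3410 to 5790 in HP arrays, against -5970 to -3780 in control arrays, and for tubular injury 271000 to 531000 in HP arrays, against -447000 to -341000 in control arrays. Nearly all of the last sum came from Havcr1, a membrane protein of injured proximal tubule (difference 423000 millionths, adjusted p = 0.0060), and Spp1, osteopontin (333000, adjusted p = 0.0038). Among the fibroblast markers was Col1a1, a collagen chain (1130, adjusted p = 0.0093).

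Of 8 markers of the thick ascending limb and distal tubule 0 were called (median -0.34), and of 9 collecting duct markers 1 was called higher, Scnn1b (median -0.70), with a sign that was negative after quantile normalization. Podocytes (4 measured), endothelium (5), erythrocytes (3) and striated muscle (12) had 0 calls, with medians of -0.38, -0.23, -1.91 and -0.73. The part of these cell types in the values of the subunits was not tested.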

How the data were processed

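RNA of 8 kidneys was labelled with a 3' IVT kit and hybridised to Affymetrix whole-genome rat arrays. The authors quantified the deposited log2 values (base not given in the sources used here, taken as log2) with DFW over all arrays, and they were used as deposited. The number of arrays limits the precision. Gene symbols came from the platform annotation (20826 probe sets with 1 symbol, 436 with several, 9780 with none), and all 101 gene IDs of the set matched RefSeq (GRCr8).

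HP minus control was tested over 31042 probe sets (57 Affymetrix controls left out) with limma 3.58.1 (lmFit, eBayes, prior degrees of freedom 0.772) in R 4.3.3, two-sided, with Benjamini-Hochberg adjustment and a threshold of 0.05. This replaced the methods' rank products (16 pairs, 1000 permutations, FDR under 0.05), which were run as an alternative. The exact permutation test (two-sided) ran over the 70 ways to split the arrays (smallest p 0.029). Scripts were tested on simulated data. Python 3.11.15, numpy 2.4.6, pandas 2.3.3 and matplotlib 3.10.9 were used.

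Named were the 4 genes with the smallest p and the brightest gene of each complex, the isoform pairs of complex IV and the c subunit genes, with all their probe sets, and up to 3 genes of each other list. Further names were added with the values in view. The members and the 16 lists were chosen with earlier results of these data known. The alternatives were other moderation, array weights, a replicate block, quantile normalization, median centring, a filter on low values, 1 probe set per gene, rank products and leaving out each array. Shifts of the arrays, by the median deviation of all probe sets or of those with a mean of at least 10, were added after the data were seen.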

Additional observations from a re-analysis of the deposited data

Results flagged for a closer look

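In the named probe sets, 82 groups of 4 arrays were searched for an array whose gap to the nearest other array, over the range of its group, was past Dixon's critical value, and 6 were found. Chance alone gives about 1 in 20 such groups. Values are deviations from the mean of the 8 arrays in millionths of a log2 unit.

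In complex II, HP replicate 1 lay below the other HP arrays for Sdhc, at -1.16, and control replicate 4 lay below the other control arrays for Sdhd (1371296_at), at -0.0988. Control replicate 3 lay above the other control arrays for Uqcr11 of complex III, at 1.65, and for Cox6b1 of complex IV, at 0.455. In the dim isoforms of complex IV, HP replicate 3 lay below the other HP arrays for Cox4i2, at -2.58, and HP replicate 2 for Cox8b, at -253. Leaving out any of these arrays called none of these 6 probe sets.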

How the results depend on the processing

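Against 1 subunit probe set called lower, limma called 2 lower without moderation (Atp5me and Atp5pd, both complex V), 4 with trend and robust moderation (3 in complex I and Atp5me), 2 and 1 higher without the 25% of probe sets of lowest mean (1 of those lower in complex I, and Cox6b2 of complex IV higher), and 3 and 1 higher with 1 probe set per gene (3 in complex I, 0 in complex V, and Cox6b2 higher). After quantile normalization 13 were called lower (3 in complex I, 1 in complex III, 4 in complex IV, 3 in complex V, 2 assembly factors) and 27 had a lower HP mean. The overall median standardized difference was then 0, as were those of complexes I to V and of the assembly factors, and that of Cox6b2 turned to -31.59. Quantile normalization gives equal values to equal ranks, and 70 of the 101 probe sets had the same rank on all 8 arrays, so little of the spread within diets was left, and over all probe sets 7712 were called lower and 316 higher. Median centring gave 0 calls among the subunits, complex V included, and a lower HP mean in 101 of 101. The array medians differed by up to 65.1 millionths of a log2 unit, far above the differences of the subunits. Rank products called 0, complex V included. Both added shifts called Cox6b2 of complex IV higher (1 probe set) and kept the call of Atp5me, with a lower HP mean in 81.

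Leaving out 1 array at a time gave 0 to 1 calls lower and 0 to 1 higher, the higher one being Cox6b2 of complex IV without control replicate 1. Complex I had 0 to 1 calls lower (Ndufa1, without HP replicate 3) and complex V 0 to 1. The HP mean was lower in 88 to 94 probe sets, and the median of complex II ranged from -4.59 to -1.68, and that of complex IV from -1.14 to -0.38, the lower end of both without control replicate 4.

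The replicate numbers are given by the labels, but no source ties rats of equal number. Deviations of same-numbered arrays correlated over all probe sets at 0.121, 0.0887, 0.0626 and 0.00148. Whether arrays of equal number share more than the number is not known from the sources used here. With a replicate block, limma called 254 probe sets higher and 115 lower, against 915 and 350 without it, and among the subunits again Atp5me alone (adjusted p = 0.040), with a standardized difference of -9.51. HP replicates 1 to 3 correlated best with the control array of their own number, and HP replicate 4 with control replicate 3.

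DFW values of most subunits differ in the sixth to eighth decimal, their log base is unknown, and how these differences relate to amounts of RNA was not tested. Nothing in the sources used here names a batch. The p-values measure the spread between single rats, picked as average animals, and with 4 arrays a diet a difference that did not pass was not shown to be absent.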
